A study of Mus musculus with 6 samples.

Results

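Transforming growth factor β (TGF-β) is a secreted cytokine with 3 mammalian forms, encoded by Tgfb1, Tgfb2 and Tgfb3. These 3 ligands and 6 genes of secreted matrix proteins that are classed as targets of TGF-β were followed in the series, Ctgf, Cyr61, Thbs1, Postn, Tnc and Fn1. They were taken by gene symbol, and the 9 symbols had 11 of the 27794 rows of the RPKM table, with 3 rows for Postn and 1 for each of the others. For Postn the row with the highest mean was used. The table holds 20275 coding gene symbols, of which 6050 had a mean over the 4 libraries of at least 100 units, and all 9 genes were among these.

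The series holds RNA-seq of mouse embryonic fibroblasts (MEFs) before treatment and after 1.5, 6 and 24 hr of TNFα at 20 ng/ml, with 1 library per time, and 1 H3K4me3 ChIP-seq library with 1 input library from untreated MEFs. The cells were wildtype primary cultures of the mixed C57BL/6x 129 strain, taken from littermate embryos at day 13.5 and passaged 4 times, and the labels of the RNA libraries share this background and differ in the time in TNFα. The study used more than 1 MEF line of a genotype, and which line or culture each library came from is not stated, so a difference between cultures cannot be told apart from one of time. Primary MEFs are a mixed culture of embryonic cells grown in serum, itself a source of growth factors. TNFα is an inflammatory cytokine and a strong inducer of NF-κB. With 1 library per time there was no spread between replicates and no test, and every difference below compares libraries and not conditions.

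TGF-β is secreted in a latent complex that is held in the matrix until it is activated. The free ligand binds the receptors Tgfbr2 and Tgfbr1, which phosphorylate Smad2 and Smad3, and these enter the nucleus with Smad4. Fibroblasts answer TGF-β with matrix production. Ctgf and Cyr61 encode CCN proteins, secreted factors that bind integrins and are also direct targets of YAP and TEAD. Thbs1 encodes thrombospondin 1, a glycoprotein that can release TGF-β from its latent complex. Postn (periostin), Tnc (tenascin C) and Fn1 (fibronectin) encode matrix proteins of developing and healing tissue.

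Before the values, promoter sequence is shown for the members that RefSeq windows were given for, since they differ in base composition and in start-site motifs. Windows were matched for 5 of the 9 members, Tgfb1, Tgfb2, Cyr61 (listed as Ccn1), Postn and Tnc, and Tgfb3, Ctgf, Thbs1 and Fn1 were not matched. Each line below gives the 250 bases before the start in the GRCm38.p6 build, from 5′ to 3′ on the strand of the gene, at chr7:25686752-25687001 on the plus strand for Tgfb1, chr1:186705990-186706239 on the minus strand for Tgfb2 and chr3:145649986-145650235 on the minus strand for Cyr61. The window of Postn is chr3:54360857-54361106 on the plus strand and that of Tnc is chr4:64046937-64047186 on the minus strand, each the second of 2 windows listed. Capitals mark matches on either strand to 1 of 6 motifs.
Tgfb1: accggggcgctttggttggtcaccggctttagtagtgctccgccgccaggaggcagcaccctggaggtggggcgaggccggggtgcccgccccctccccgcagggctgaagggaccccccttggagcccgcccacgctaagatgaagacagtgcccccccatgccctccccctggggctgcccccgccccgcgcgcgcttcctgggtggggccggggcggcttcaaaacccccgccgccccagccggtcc
Tgfb2: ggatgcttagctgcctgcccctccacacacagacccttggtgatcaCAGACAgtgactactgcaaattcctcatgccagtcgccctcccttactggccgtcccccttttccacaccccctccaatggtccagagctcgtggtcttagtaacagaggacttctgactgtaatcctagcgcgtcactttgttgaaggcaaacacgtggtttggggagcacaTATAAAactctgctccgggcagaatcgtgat
Cyr61: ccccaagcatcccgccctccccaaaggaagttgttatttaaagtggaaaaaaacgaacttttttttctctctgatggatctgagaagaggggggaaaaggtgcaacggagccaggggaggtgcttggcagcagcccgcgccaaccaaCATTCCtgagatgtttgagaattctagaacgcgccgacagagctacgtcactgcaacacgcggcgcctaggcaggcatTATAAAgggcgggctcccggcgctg
Postn: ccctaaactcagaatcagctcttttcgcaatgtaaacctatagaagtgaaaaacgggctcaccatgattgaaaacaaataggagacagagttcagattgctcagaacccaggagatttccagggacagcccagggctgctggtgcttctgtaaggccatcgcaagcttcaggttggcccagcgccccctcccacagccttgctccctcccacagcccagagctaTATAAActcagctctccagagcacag
Tnc: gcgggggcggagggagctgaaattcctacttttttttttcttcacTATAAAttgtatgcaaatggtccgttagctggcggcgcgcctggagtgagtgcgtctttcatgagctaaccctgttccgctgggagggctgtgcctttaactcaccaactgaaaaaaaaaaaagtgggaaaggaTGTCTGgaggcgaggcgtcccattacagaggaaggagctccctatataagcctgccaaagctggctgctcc

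The 6 motifs were TATAAA of the TATA box, GGAATG of TEAD factors, CAGACA of SMAD proteins, TGANTCA of AP-1, the NF-κB site and the CArG box of serum response factor. Counted from the start, TATAAA lay at -31 to -26 in Tgfb2, -25 to -20 in Cyr61 and -26 to -21 in Postn. In Tnc these exact letters lay at -205 to -200, and in the other window of Tnc the same site is at -126 to -121. Only exact letters were searched, and a related run, TATATAA, looked for after the sequences were seen, lay at -29 to -23 in the printed window of Tnc and at -28 to -22 in that of Postn, where it overlaps TATAAA. It was in 3.02% of all windows. The other window of Postn held none of the motifs. The TATAAA letters were in 12.3% of all 32536 distinct windows of this length. Cyr61 also held GGAATG on its minus strand, at -103 to -98, as did 12.6% of windows somewhere. CAGACA was matched at -204 to -199 in Tgfb2 and, on the minus strand, at -71 to -66 in Tnc, and 17.0% of windows held it. None of the printed windows matched the motifs searched for AP-1, NF-κB or the CArG box, which were in 6.73%, 1.40% and 1.48% of windows. Looser forms of the NF-κB site were not searched, so sites of that kind may be present. Tgfb1 matched none of the 6 motifs, and its window was 75.2% G and C, against 54.8% for Cyr61, 53.6% for Tgfb2, 52.0% for Postn and 51.2% for Tnc and a median of 52.4% over all windows. A match is a run of letters and not a bound site.

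The authors' values are RPKM on a scale of the table's own, in which the steps between low values put 1 read on 1 kb of transcript at about 0.954 units (untreated library, R1 column). Values below are in these units, as the mean of the 2 columns (R1 and R2) of a library. What R1 and R2 hold is not stated, so they were not used as replicates, and their difference was at most 13.95% of their mean for any member in any library. Both columns belong to 1 library, so their agreement below does not show that a value would recur in another culture. Since RPKM is per length, levels can be set side by side between genes. The libraries differed as a whole, and over the 6050 coding genes the log2 ratio to untreated MEFs had medians of 0.44, -0.74 and 0.10 after 1.5, 6 and 24 hr. Each ratio is therefore given as deposited and relative to this median coding gene.

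The ratios of coding genes also moved with the base composition of the transcript. Among 20 bins of GC content, the median log2 ratio at 1.5 hr was 1.42 in the bin of lowest GC content (34.4 to 42.6%) and -0.76 in that of highest (60.8 to 71.7%). At 24 hr these medians were 1.01 and -0.98, and at 6 hr -0.08 and -0.89. The longest coding transcript was 44.1% GC for Postn, 47.5% for Tgfb2, 49.9% for Thbs1, 51.7% for Ctgf, 52.5% for Tnc, 52.8% for Cyr61, 53.0% for Tgfb3, 53.5% for Fn1 and 62.5% for Tgfb1. For the members, ratios relative to the genes of the same GC bin are also given. Such ratios were not computed for the other genes of the pathway named below, so those genes were not checked against this trend. Whether GC content is the source of this trend was not tested.

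Of 10 fibroblast markers 9 passed the level of 100 units, which is set on the mean of the libraries. Their list summed to 86480.5, 85545.1, 40710.9 and 53621 units in order of time. At 24 hr 1 of the 9 was at least 2-fold higher as deposited (Vim, 1.49), where 16.8% of coding genes were. Another 3 were lower (Col1a1, Pdgfrb and Col3a1, at -1.85, -1.18 and -1.14), where 12.8% were. Endothelial markers summed to at most 6.93 units and epithelial markers to at most 51.1 units, with Epcam at 0. Of 6 leukocyte markers 3 passed, Lyz2, Cd68 and Csf1r, and the summed level was 3237, 15946, 3027 and 7719 units in order of time. Most of it was Lyz2, with 14668 units at 1.5 hr, while Ptprc stayed between 8.63 and 30.8 units. The 3 that passed did not move together. Lyz2 had log2 ratios of 2.70, 0.25 and 1.67, whereas Cd68 had 0.44, -1.58 and -0.96 and Csf1r -0.04, -1.71 and -1.25. Of 6 muscle markers 4 passed, with Acta2 between 13284 and 58130 units, and Myod1 was at 0. The part of such cells in the results below was not tested, and a change in the number of cells of a type cannot be told apart from a change in RNA per cell. The TNFα response itself was plain, since Nfkbia, Tnfaip3 and Ccl2 had log2 ratios of at least 3.06 at every time.

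As deposited, the 3 ligands lay below the untreated library at every time, and Ctgf and Cyr61 above it at every time. The matrix glycoproteins were above it at 1.5 hr and below it at 6 hr. These directions held under every scaling tried for Tgfb2, Tgfb3, Ctgf, Cyr61 and Fn1, while those of Tgfb1 and Thbs1 at each time, Postn at 6 and 24 hr and Tnc at 6 hr turned under at least 1 scaling. With 2-fold as the call, 4 of the 9 genes were higher at 1.5 hr (Tnc, Ctgf, Postn and Cyr61), where 29.8% of coding genes were, and 0 were lower, where 7.97% were. At 6 hr 0 were higher (1.83% of coding genes) and 3 were lower (Tgfb3, Tgfb2 and Fn1, against 31.5%). At 24 hr 2 were higher (Ctgf and Cyr61, against 16.8%) and 1 was lower (Tgfb3, against 12.8%). Relative to the median coding gene the counts at 1.5 hr were 2 higher (Tnc and Ctgf, background 15.8%) and 0 lower (17.4%). At 6 hr they were 2 higher (Ctgf and Cyr61, 7.21%) and 1 lower (Tgfb3, 3.26%), and at 24 hr 2 higher (Ctgf and Cyr61, 14.4%) and 2 lower (Tgfb3 and Tgfb2, 15.2%). The median log2 ratio of the 9 genes was 0.60, -0.72 and 0.09 at the 3 times, next to 0.44, -0.74 and 0.10 for all coding genes.

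**Figure D1:**
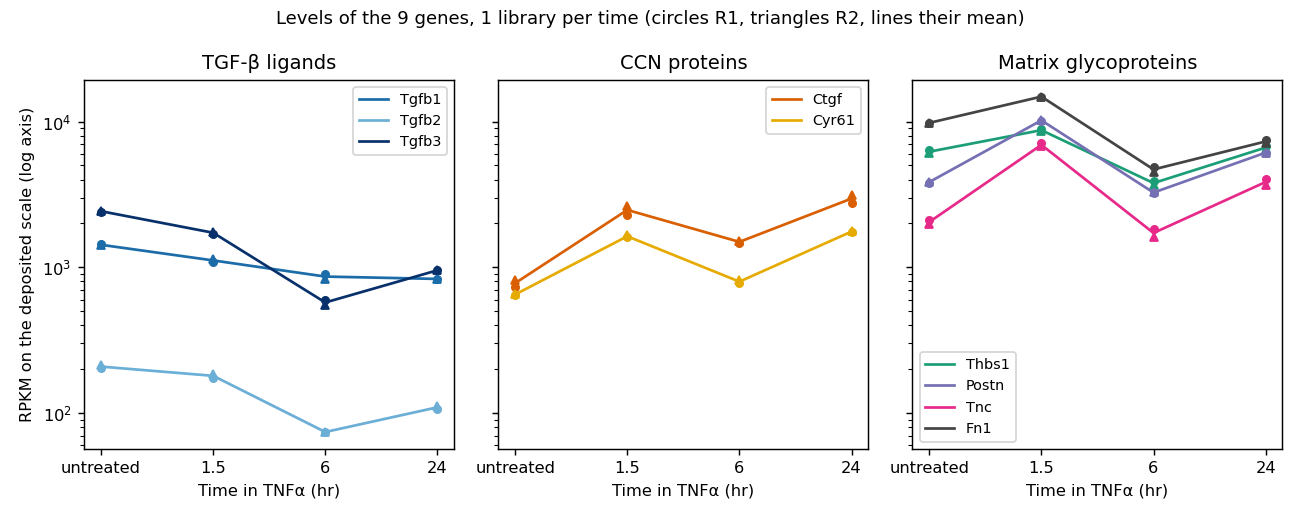
RPKM on the deposited scale (log axis) of the 9 genes in the untreated library and after 1.5, 6 and 24 hr of TNFα. Circles are R1, triangles R2 and lines their mean, with 1 library per time. Tgfb3 goes from 2424 units untreated to 573 at 6 hr, while Ctgf goes from 778 to 2959 at 24 hr.

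Tgfb3 was the highest of the ligands in untreated MEFs. It encodes a TGF-β form of mesenchyme and of palate and lung development. Its level was 2424 units untreated and 1725, 573 and 953 units after 1.5, 6 and 24 hr of TNFα. The R1 and R2 columns of any pair of times did not overlap. The log2 ratios were -0.49, -2.08 and -1.35, so that the level was lower by a factor of 4.23 at 6 hr and 2.54 at 24 hr. At 6 hr 0.727% of the coding genes had a lower ratio. Relative to the median coding gene the values were -0.93, -1.34 and -1.45, and within its GC bin they were -0.95, -1.24 and -1.45, so that the 2-fold calls at 6 and 24 hr did not rest on the scaling.

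Tgfb1 encodes the most widely expressed form of the cytokine. It had 1426 units untreated and 1114, 863 and 832 units after 1.5, 6 and 24 hr of TNFα. The untreated library was the highest, and those at 6 and 24 hr were close, with overlapping columns (831 and 895 units against 829 and 834). Its log2 ratios of -0.36, -0.72 and -0.78 did not reach 2-fold. Relative to the median coding gene they were -0.80, 0.02 and -0.88, and within its GC bin, the one of highest GC content, they turned to 0.41, 0.17 and 0.20.

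Tgfb2, the form with a prominent part in heart and craniofacial development, was the lowest of the 9 genes in every library. Its level was 208 units untreated and 180, 74.0 and 109 units after 1.5, 6 and 24 hr of TNFα. As for Tgfb3, the untreated library was highest and the 6 hr library lowest. The log2 ratios were -0.21, -1.49 and -0.93 as deposited, and -0.65, -0.75 and -1.03 relative to the median coding gene. The 2-fold call at 6 hr was lost relative to the median and the one at 24 hr was gained. Within its GC bin the values were -1.18, -0.94 and -1.49. Tgfb2 also had the fewest reads, about 315 in the R1 column at 6 hr when its transcript length is combined with the step of 1 read. For that ratio counting alone gives a 95% half-width of 0.18 on the log2 scale, and the next widest of the 9 genes was 0.144 for Tgfb2 at 24 hr. Such half-widths cover counting error only.

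Since a ratio of genes within 1 library does not depend on how libraries are scaled, the makeup of the ligands could be followed directly. The summed level of the 3 ligands was 4057 units untreated and 3018, 1510 and 1894 units after 1.5, 6 and 24 hr of TNFα. Tgfb3 made up 59.7%, 57.1%, 38.0% and 50.3% of it in that order, and Tgfb1 35.1%, 36.9%, 57.1% and 43.9%. Tgfb2 stayed between 4.90 and 5.96%. The ratio of Tgfb3 to Tgfb1 was 1.70 untreated and then 1.55, 0.664 and 1.15. At 6 hr Tgfb1 was thus the higher of the pair, and at the other times Tgfb3 was. The R1 and R2 columns gave 0.664 and 0.664 at 6 hr, and 1.68 and 1.72 untreated. These ratios are not free of a shift with GC content, in which Tgfb1 and Tgfb3 differ.

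**Figure D2:**
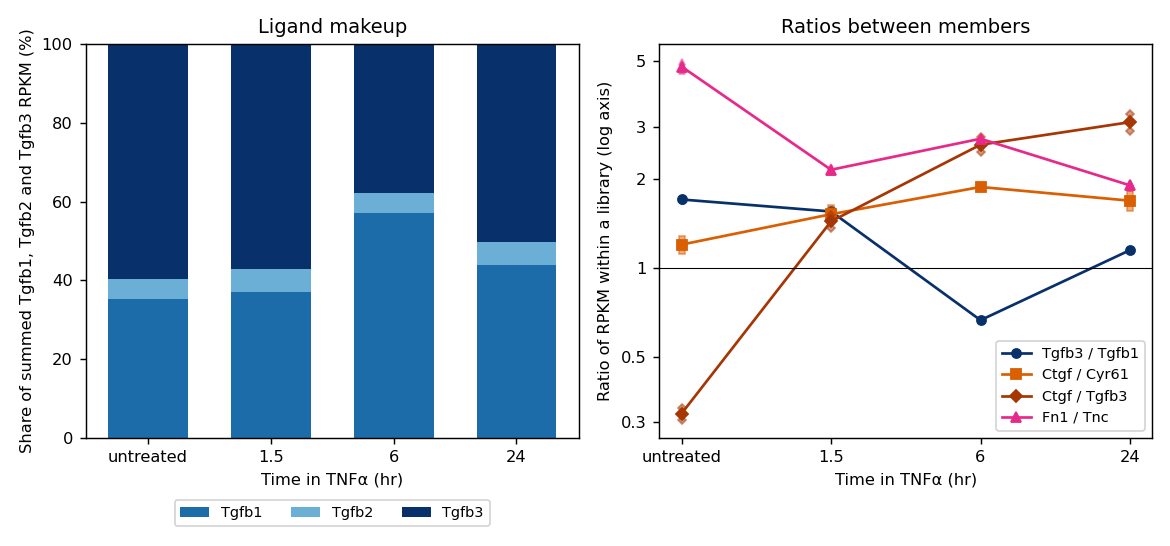
Left, the share of the summed RPKM of the ligands that Tgfb1, Tgfb2 and Tgfb3 make up in each library. Right, ratios of RPKM between members within a library (log axis; large symbols the mean of R1 and R2, small symbols each column). The share of Tgfb3 falls below that of Tgfb1 at 6 hr alone, and the ratio of Ctgf to Tgfb3 goes from 0.321 to 3.11.

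Ctgf encodes connective tissue growth factor (CCN2), a mediator of fibrosis. It had 778 units untreated and 2473, 1493 and 2959 units after 1.5, 6 and 24 hr of TNFα. Every treated library was above the untreated one, in both columns, with the highest value at 24 hr. The log2 ratios were 1.67, 0.94 and 1.93, or folds of 3.18, 1.92 and 3.80. At 6 hr 98.0% of the coding genes had a lower ratio, and at 24 hr 97.5%. Relative to the median coding gene the values were 1.23, 1.68 and 1.83, and within its GC bin 1.08, 1.73 and 1.77. The call at 6 hr as deposited thus stands just under 2-fold and is past it under every scaling tried.

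Cyr61 encodes CCN1, an immediate-early gene of serum and growth factors. Its level was 650 units untreated and 1631, 797 and 1757 units after 1.5, 6 and 24 hr of TNFα. The libraries at 1.5 and 24 hr were the high ones, and that at 6 hr was close to the untreated one but above it in both columns. The log2 ratios were 1.33, 0.29 and 1.43 as deposited and 0.88, 1.03 and 1.33 relative to the median coding gene. Within its GC bin they were 0.87, 1.13 and 1.33. The direction was the same under every scaling tried, while the call at 1.5 hr was lost, and that at 6 hr gained, relative to the median and within the GC bin. Ctgf and Cyr61 were close in level when untreated, with a ratio of 1.20, and the ratio was 1.52, 1.87 and 1.68 at the later times.

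Set against the ligands within each library, Ctgf was 0.321 times Tgfb3 in untreated MEFs and 1.43, 2.60 and 3.11 times Tgfb3 in the treated libraries in order of time. The order of the 2 genes was therefore exchanged in every treated library. Ctgf and Tgfb3 differ by little in GC content, and their time courses were the farthest apart of the 36 pairs of members, with a distance of 4.95 over the 3 log2 ratios.

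The level of Tnc was 2044 units untreated and 6915, 1719 and 3845 units after 1.5, 6 and 24 hr of TNFα. Tenascin C is a large matrix protein of embryonic and inflamed tissue. The columns of the untreated and 6 hr libraries did not overlap, but lay close (1975 and 2114 against 1618 and 1820). The log2 ratio at 1.5 hr was 1.76, the highest of the 9 genes, and it was 1.32 relative to the median coding gene and 1.30 within its GC bin. At 24 hr the values were 0.91, 0.81 and 0.81. At 6 hr they were -0.25, 0.49 and 0.59, so that the direction at this time depended on the scaling.

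Postn had 3841 units untreated and 10186, 3253 and 6116 units after 1.5, 6 and 24 hr of TNFα. Its 3 rows are transcripts that share most exons, and all gave log2 ratios of 1.41, -0.24 and 0.67. Periostin is a matrix protein of bone, tendon and heart valves, and its transcript has the lowest GC content of the 9 genes. Relative to the median coding gene the values were 0.96, 0.50 and 0.57, and relative to genes of its GC bin they were 0.09, -0.05 and -0.19. The rise at 1.5 hr was thus close to that of other genes of like base composition, and the direction at 6 and 24 hr depended on the scaling.

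Fn1 was the highest of the 9 genes in every library. Its level was 9786 units untreated and 14818, 4689 and 7296 units after 1.5, 6 and 24 hr of TNFα. The library at 1.5 hr was above the untreated one and those at 6 and 24 hr below it, in both columns. The log2 ratios were 0.60, -1.06 and -0.42 as deposited, and 0.16, -0.32 and -0.53 relative to the median coding gene, where no time reached 2-fold. In the R1 column alone the 6 hr ratio was -0.997 and just missed 2-fold. Within its GC bin the 3 ratios were 0.18, -0.26 and -0.48.

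Thbs1 had 6206 units untreated and 8724, 3781 and 6626 units after 1.5, 6 and 24 hr of TNFα. It tracked the median coding gene closely, and the log2 ratios of 0.49, -0.72 and 0.09 became 0.05, 0.02 and -0.01 relative to it. Within its GC bin the values were -0.27, 0.00 and -0.27, so the direction at each time depended on the scaling.

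The order of the levels of the 9 genes was the same at its ends in every library, with Fn1 first and Tgfb2 last, and no pair of neighbours in the order had overlapping R1 and R2 columns. In untreated MEFs the order was Fn1, Thbs1, Postn, Tgfb3, Tnc, Tgfb1, Ctgf, Cyr61 and Tgfb2. At 24 hr it was Fn1, Thbs1, Postn, Tnc, Ctgf, Cyr61, Tgfb3, Tgfb1 and Tgfb2, with both CCN genes above all of the ligands. Fn1 was 4.79 times Tnc in untreated MEFs and 2.14, 2.73 and 1.90 times Tnc at 1.5, 6 and 24 hr. These 2 genes lie within 1 percentage point of each other in GC content.

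**Figure D3:**
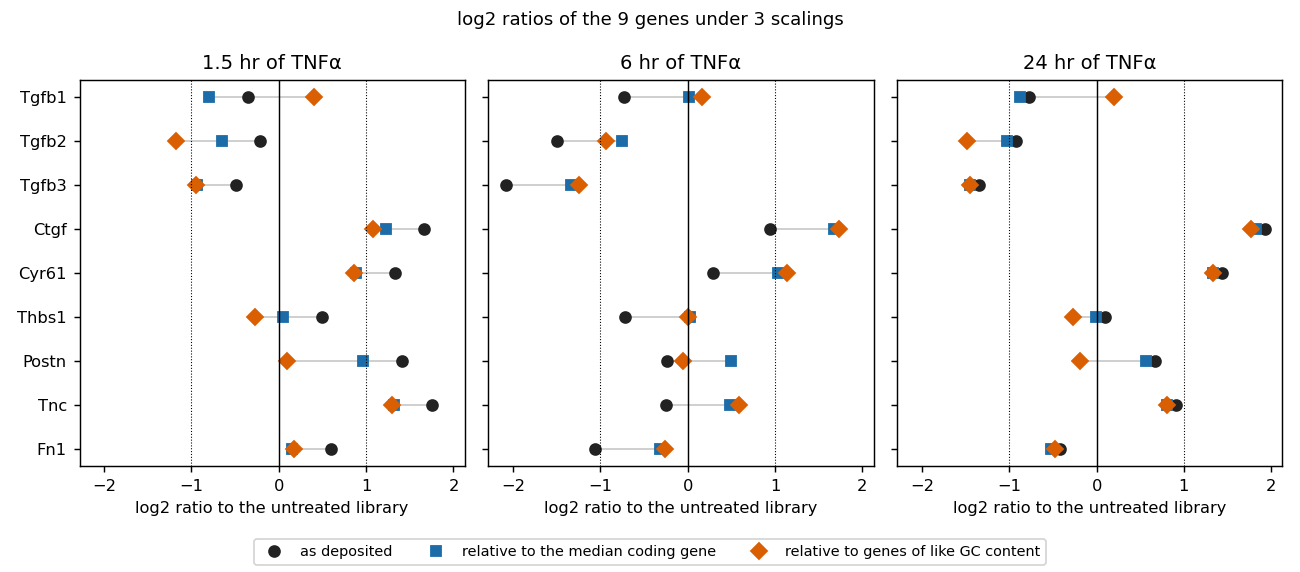
log2 ratio to the untreated library of each gene at 1.5, 6 and 24 hr of TNFα, as deposited (circles), relative to the median coding gene (squares) and relative to coding genes of the same GC bin (diamonds). Dotted lines mark a 2-fold change. Ctgf and Cyr61 lie to the right of 0, and Tgfb2 and Tgfb3 to the left, at every time and under all 3 scalings, while the scalings of Tgfb1, Thbs1, Postn and Tnc fall on both sides of 0 at 1 or more times.

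**Figure D4:**
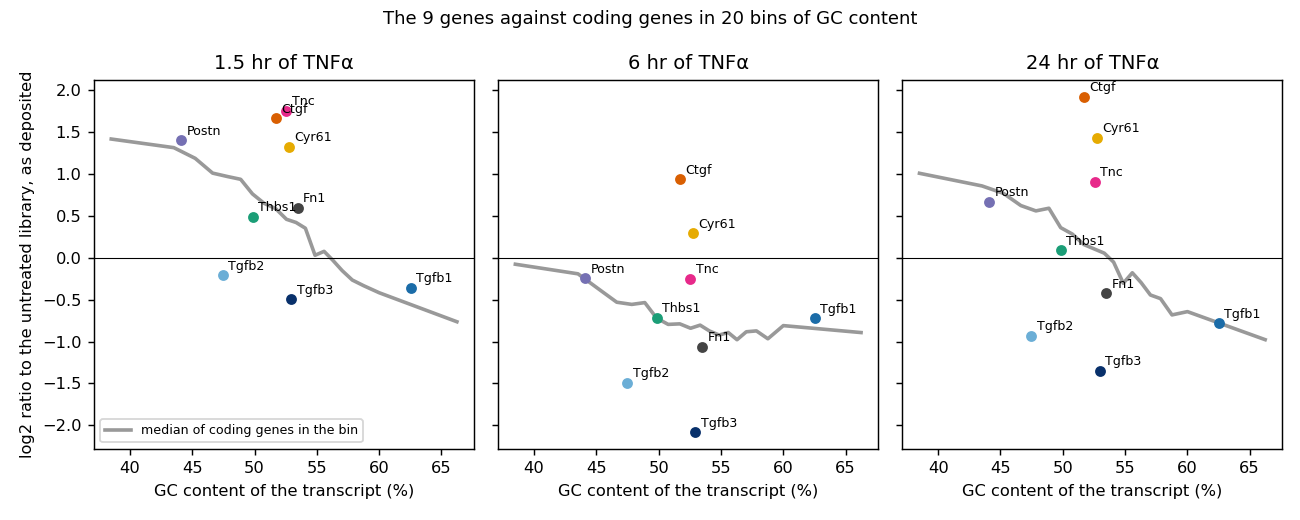
log2 ratio to the untreated library as deposited against GC content of the transcript (%), with the 9 genes as points and the median of coding genes in each of 20 bins of GC content as a line. The line goes from 1.42 to -0.76 at 1.5 hr, and Postn differs from the median of its bin by 0.09, -0.05 and -0.19.

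Time courses close to those of the members were looked for among the other 6049 coding genes, by the Euclidean distance over the 3 log2 ratios as deposited. The ratios share the untreated library, and a distance over 3 values is a loose measure. Within a distance of 0.5 lay 860 genes (14.2%) for Thbs1, 563 for Postn, 458 for Tgfb1, 454 for Tnc, 297 for Tgfb2, 246 for Fn1 and 142 for Cyr61. There were 45 for Tgfb3 (0.744%) and 12 for Ctgf (0.198%), the fewest. The 2 nearest genes were Polr2b and Gtf2a2 for Ctgf, Isca2 and Hmga2 for Cyr61, and Coro1a and P4ha3 for Tgfb3. For Tgfb1 they were 2310011J03Rik and Zfp526, for Tgfb2 Tanc1 and Ncoa3, for Thbs1 Dlc1 and Pxn, for Postn Oat and Rlim, for Tnc Hdac2 and Scfd1, and for Fn1 Mcam and Sorcs2. Of the members themselves, Postn and Tnc had the most similar ratios (distance 0.43), then Thbs1 and Fn1 (0.63) and Tgfb2 and Tgfb3 (0.78).

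The other genes of the pathway were read from lists of receptors, SMAD proteins, inhibitors, latency proteins and targets. Of 6 receptor genes 3 passed the level of 100 units. Tgfbr2, the receptor that binds the ligand, was 1 of the 3 and had log2 ratios of 1.08, -1.14 and 0.08 at 1.5, 6 and 24 hr (0.63, -0.40 and -0.02 relative to the median coding gene). Eng, a co-receptor, had -0.86, -1.60 and -0.94, and Acvrl1, a type I receptor of the BMP branch, -0.74, -0.85 and -0.50. Relative to the median Eng had -1.31, -0.86 and -1.04 and Acvrl1 -1.18, -0.11 and -0.61. At 6 hr 2 of the 3 were at least 2-fold lower as deposited, where 31.5% of coding genes were, and 0 relative to the median, where 3.26% were. At 1.5 hr 0 were lower as deposited (7.97% of coding genes) and 2 relative to the median (17.4%). At 24 hr 0 were lower as deposited (12.8%) and 1 relative to the median (15.2%). Tgfbr1, the type I receptor of TGF-β, was below the level, with between 11.6 and 47.7 units.

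Of 7 SMAD genes 3 passed. Smad4, the common partner, had log2 ratios of 1.39, -0.55 and 0.79. It was the 1 of these 3 at least 2-fold higher as deposited, at 1.5 hr, where 29.8% of coding genes were. Smad3, which carries the TGF-β signal, had 0.73, -0.85 and -0.51. Relative to the median coding gene 0 of the 3 reached 2-fold at any time, next to 15.8% of coding genes higher and 17.4% lower at 1.5 hr. Among the SMAD genes below the level, Smad2 (mean of 85.3 units) had log2 ratios of 1.64, 0.01 and 1.14. Smad6 (mean of 28.1 units) had -1.08, -2.04 and -1.46. Smad7, an inhibitor that TGF-β signalling induces, had 113 units untreated and log2 ratios of 0.11, -0.54 and -0.28.

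Of 9 intracellular inhibitors 5 passed, Smad7 among them. Tgif1, a corepressor of SMAD proteins, had log2 ratios of 1.83, -0.16 and 1.49. Smurf1, a ubiquitin ligase that acts on SMAD proteins and receptors, had 1.42, -0.28 and 0.81, and Ski, a corepressor, -0.30, -1.54 and -0.67. Pmepa1, which is induced by TGF-β and limits SMAD activation, had 3361 units untreated and 1279, 3282 and 1133 units after 1.5, 6 and 24 hr of TNFα. Its log2 ratios were -1.39, -0.03 and -1.57, and relative to the median coding gene -1.84, 0.71 and -1.67, so that the 6 hr library was the exception.

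Of 10 genes of latency and activation 8 passed. At 24 hr 1 of the 8 was past 2-fold upward and 3 downward, as deposited and relative to the median alike, next to 16.8% and 12.8% of coding genes as deposited and 14.4% and 15.2% relative to the median. Itgav, the integrin αV subunit that takes part in activation of the latent complex, was the higher one, with log2 ratios of 1.87, 0.43 and 1.38. Relative to the median coding gene these were 1.43, 1.17 and 1.27, past 2-fold at 6 hr as well. The latent TGF-β binding proteins Ltbp3 and Ltbp4 had -1.69 and -1.38 at 24 hr. Lrrc32, which holds latent TGF-β at the cell surface, had 0.90, -1.03 and 0.01 (0.46, -0.29 and -0.09 relative to the median).

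Within the CCN family 5 of 6 genes passed, and they divided. Ctgf and Cyr61 were at least 2-fold higher at 24 hr, and Nov and Wisp2 at least 2-fold lower, as deposited and relative to the median. Thus 2 of the 5 were called in each direction. Of coding genes 16.8% were higher and 12.8% lower as deposited, and 14.4% and 15.2% relative to the median. Nov (CCN3) had 282 units untreated and 46.4 at 24 hr, a log2 ratio of -2.60. Wisp2 (CCN5) had 1244 units untreated and 242 at 24 hr, a log2 ratio of -2.36. Wisp1 (CCN4) had log2 ratios of 0.76, -0.88 and 0.54 (0.32, -0.14 and 0.43 relative to the median).

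Among 5 thrombospondins 3 passed, and Thbs2 had log2 ratios of 0.68, -1.41 and -0.82 and Thbs3 -0.70, -1.01 and -1.23, next to the values of Thbs1 near those of the median gene. Of 9 tenascins and other matricellular genes 6 passed. At 1.5 hr 3 of the 6 were at least 2-fold higher as deposited, Tnc, Spp1 and Postn, and 2 relative to the median, next to 29.8% and 15.8% of coding genes. Spp1 (osteopontin) had log2 ratios of 1.75, -0.40 and 0.93, close to those of Tnc. Tgfbi, named for its induction by TGF-β, had 0.31, -2.16 and -1.52, and Tnn, another tenascin, 0.56, -1.21 and -0.55.

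Of 10 genes listed as direct targets of TGF-β or of YAP and TEAD, 9 were in the table and 8 passed. At 24 hr 2 of the 8 were at least 2-fold higher, Ankrd1 among them, and 2 were at least 2-fold lower, Tgfbi and Pmepa1. These counts were the same as deposited and relative to the median. The shares of coding genes were 16.8% higher and 12.8% lower as deposited, and 14.4% and 15.2% relative to the median. Ankrd1, a target of YAP, had log2 ratios of 1.00, 0.23 and 1.34. Of the other genes of this list, Amotl2 was below the untreated library at all 3 times as deposited, with -0.22, -0.49 and -0.36. Axl had 0.82, -0.12 and 0.96 and Lats2 0.25, -0.86 and 0.33. Relative to the median coding gene Amotl2 had -0.66, 0.25 and -0.47, so that its direction at 6 hr turned. Axl then had 0.37, 0.62 and 0.86 and Lats2 -0.19, -0.12 and 0.22.

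H3K4me3 is a histone mark of active promoters. In untreated MEFs a deposited peak lay within 1 kb of an annotated coding start for 8 of the 9 genes, and it covered the start in each case. The share was 92.4% of the 5930 coding genes past the level that the annotation could place. Coordinates of genes and peaks are those of mm9, whereas the promoter windows above are in GRCm38.p6. The exception was Tnc (chromosome 4, 63620819 to 63681760, minus strand), whose nearest peak was 21706 bp from any of the starts of its 6 coding transcripts. Of the 439 coding genes with an untreated level at or above that of Tnc, 29 (6.61%) had no peak within 1 kb. The list holds no peak under 20-fold enrichment, so a weaker one at Tnc would not be in it.

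The peaks of the members were longer than most peaks at coding starts, with between 74.8% (Tgfb1) and 99.9% (Thbs1) of those shorter. No comparison with genes of like RNA level was made. Over the 5309 peaks at coding starts the median length was 3694 bp, and the 8 peaks were between 4749 and 17408 bp. That of Thbs1 (chromosome 2, 117937612 to 117952869, plus strand) ran from -2720 to 14687 bp relative to the start, over nearly the whole gene, and was the 6th longest of all 11157 peaks. That of Cyr61 (chromosome 3, 145309935 to 145312949, minus strand) was 11496 bp long with 4972 tags and covered the gene from end to end, as did the peak of Ctgf. Fn1 (chromosome 1, 71632094 to 71699774, minus strand) had a peak of 10457 bp with 3300 tags.

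The ligand peaks were 4749 bp with 2188 tags at Tgfb1 (chromosome 7, 26472021 to 26490096, plus strand), 6524 bp with 2153 tags at Tgfb2 (chromosome 1, 188447065 to 188529871, minus strand) and 7095 bp with 3558 tags at Tgfb3 (chromosome 12, 87397694 to 87419991, minus strand). Tgfb2, the lowest of the 9 genes in RNA, thus had a peak close in tags to that of Tgfb1. Ctgf (chromosome 10, 24315248 to 24318489, plus strand) had 6242 bp with 1530 tags and the lowest fold enrichment, 39.6. Postn (chromosome 3, 54165031 to 54194961, plus strand) had the fewest tags, 845, with 17.7% of peaks at coding starts below it, at a fold enrichment of 76.6, the highest of the 8. Treated MEFs have no ChIP-seq library here, so these peaks describe the state before TNFα.

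**Figure D5:**
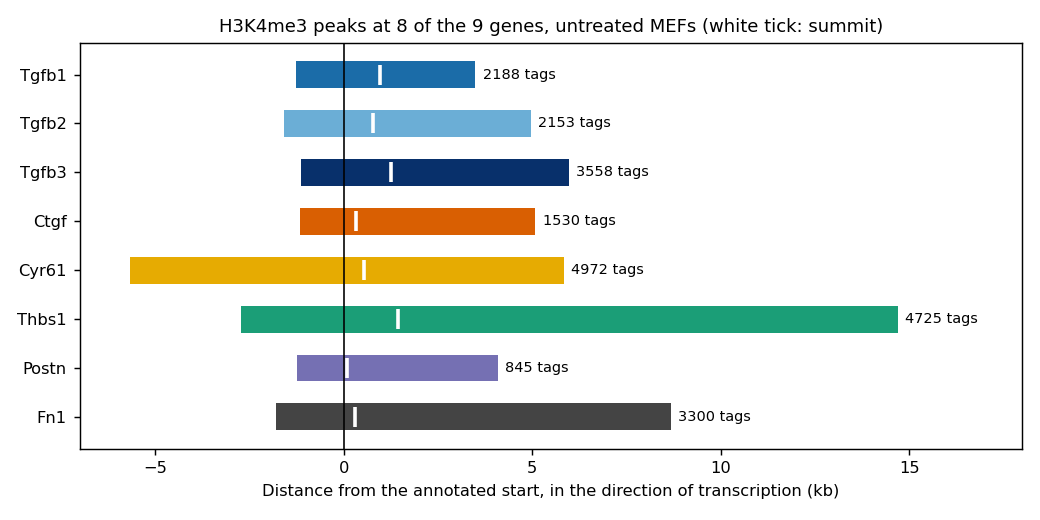
Extent of the H3K4me3 peak at 8 of the 9 genes in untreated MEFs, as the distance from the annotated start in the direction of transcription (kb), with the summit as a white tick and the tags in the peak beside it. Every bar covers the start, and that of Thbs1 reaches 14687 bp past it.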

How the data were processed

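RNA-seq reads were mapped by the authors to mm9 with TopHat, and RPKM per RefSeq transcript was deposited, in 2 columns (R1 and R2) for each of 4 libraries. The columns carry library names that the study's list of sequencing depths pairs with times. For the 24 hr sample the extraction field describes ChIP, whereas its title and treatment place it with the RNA-seq libraries. The RPKM has a scale of its own, and its denominator is not given in the sources used here. ChIP-seq reads were mapped with Bowtie, and the peaks deposited by the authors were called with MACS, with a tag count per peak, a score from the logarithm of p, a fold enrichment (a ratio), an FDR in percent and a signal (tags per base of the peak).

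For coding symbols (NM_ rows) the row with the highest mean of the 8 columns was kept, R1 and R2 were averaged, and log2 ratios to the untreated library were taken with no pseudocount. With 1 library per time no test was made, and 2-fold was the call. Levels of at least 100 units set the background. Ratios were also centred on the median coding gene and, for the 9 members alone, within 20 bins of GC content. GC content was found for 98.0% of coding genes past the level. Starts, lengths and GC content came from GENCODE vM1 (NCBIM37, the mm9 assembly). Members, pathway lists and alternatives were chosen with earlier results of these data known, and the centring by GC content was added after the values were seen. All 9 members are named. For each list, the 2 largest rises and 2 largest falls past the level were named (with a few other list genes, chosen after their values were seen), and for each member the 2 genes with the nearest ratios. 1 gene that the rule names is not reported here. Steps were tested on simulated data. Python 3.11.15, numpy 2.4.6, pandas 2.3.3 and matplotlib 3.10.9 were used.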

Additional observations from a re-analysis of the deposited data

Results flagged for a closer look

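Fn1 moved in opposite directions at different times, both as deposited and relative to the median coding gene. This held in both columns, which belong to the same library and are not replicates. Its log2 ratio at 1.5 hr was above that at 6 hr by 1.66 (0.60 against -1.06) and above that at 24 hr by 1.02 (0.60 against -0.42). With ratios centred on the median coding gene these differences were 0.48 (0.16 against -0.32) and 0.68 (0.16 against -0.53). As deposited, Thbs1, Postn and Tnc were likewise above the untreated library at 1.5 hr and below it at 6 hr, but not relative to the median. With 1 library per time neither difference was tested, and both ratios share the untreated library.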

How the results depend on the processing

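Of 27 log2 ratios (9 genes at 3 times), 18 kept their sign under all 8 alternatives, and the 9 that did not were those of Tgfb1 and Thbs1 at every time, Postn at 6 and 24 hr and Tnc at 6 hr. Not all of the 8 could move a ratio by much. The R1 and R2 columns belong to the same library, and the mean of all rows differs from the main value for Postn alone. Of the 10 ratios past 2-fold, 6 stayed past it under all 8: Tgfb3 at 6 and 24 hr, Ctgf at 1.5 and 24 hr, Cyr61 at 24 hr and Tnc at 1.5 hr. Counts of members moved as follows. Centred on the median coding gene, by a trimmed mean of log ratios or within GC bins, 2 and not 4 were at least 2-fold higher at 1.5 hr, 2 and not 0 higher at 6 hr, 1 and not 3 lower at 6 hr, and 2 and not 1 lower at 24 hr. Within GC bins 1 was also lower at 1.5 hr (Tgfb2). Scaling to the sum of coding values gave 2 higher and 1 lower at 6 hr. A 3-fold threshold gave 2 higher at 1.5 hr, 1 lower at 6 hr, and 1 higher and 0 lower at 24 hr. A 1.5-fold threshold gave 1 higher and 5 lower at 6 hr, and 4 higher and 3 lower at 24 hr. No shares of coding genes are given for these 2 thresholds or for the sum, trimmed-mean and GC-bin scalings. Those counts of members are therefore not set against a background. The R1 or R2 columns alone, a pseudocount of 10 units and the mean of all rows of a gene moved no count beyond 1.5 times. Peaks counted at 8 members within 1 kb were also 8 within 5 kb or over the start, and 7 with a fold enrichment of at least 40. The shares of coding genes were 92.4% within 1 kb, 93.4% within 5 kb, 92.2% over the start and 64.7% at that enrichment. A level of 1 unit moved the background at 1.5 hr from 7.97% to 12.8% lower, and at 6 hr from 1.83% to 3.04% higher. No paired analysis was possible because each time has 1 library. Counting error alone spanned the 2-fold line for Tgfb2 at 24 hr (-0.93 as deposited and -1.03 centred, half-width 0.144), Ctgf at 6 hr as deposited (0.94, half-width 0.0827) and Cyr61 at 6 hr centred (1.03, half-width 0.107). The spread between cultures is unknown.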
